A study of Arabidopsis thaliana with 11 samples.

Results

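The peaks of LoCENH3, the centromeric histone of Lepidium oleraceum expressed in Arabidopsis thaliana, were compared with those of AtCENH3, the plant's native protein. Peaks from the 4 libraries of these 2 variants were taken on chromosomes 1 to 5, apart from a block of LoCENH3 peaks on chromosome 4 that holds no AtCENH3 peak. This left 921 of the 1174 peaks in the 4 lists, and the 6 peak lists of the series hold 1983 peaks in all. AtCENH3 replicate 1 contributed 315 peaks, AtCENH3 replicate 2 contributed 255, LoCENH3 replicate 1 contributed 155 and LoCENH3 replicate 2 contributed 196.

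CENH3 takes the place of histone H3 in the nucleosomes of centromeres and marks where the kinetochore assembles. In Arabidopsis most of these nucleosomes lie on long arrays of a tandem satellite repeat interrupted and flanked by retrotransposons, and their position is inherited through chromatin rather than set by the DNA sequence alone. CENH3 proteins diverge quickly between species, and Lepidium belongs to the same family as Arabidopsis, the Brassicaceae.

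Both variants were mapped by chromatin immunoprecipitation and sequencing (ChIP-seq) of seedlings grown for 7 to 10 days in liquid culture, using nuclei digested with micrococcal nuclease and libraries of 200 to 400 bp. The AtCENH3 libraries came from wild-type Columbia plants and an antibody against AtCENH3. The LoCENH3 libraries came from plants that are homozygous for cenh3-1, a mutation of the native gene, and that carry CENH3 of L. oleraceum, with an antibody raised against LoCENH3. Variant, genotype, antibody and the control alignment therefore change together, and their parts in any difference cannot be told apart. The labels do not say whether the 2 libraries of a variant came from separate cultures, so the p-values measure only the spread between these libraries, which may be technical. With 2 libraries per variant the smallest permutation p the design allows is 0.333.

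The AtCENH3 libraries held 9016364 and 13280742 ChIP tags, and the LoCENH3 libraries held 22489151 and 23205886. The peak caller scaled the larger of ChIP and control down to the smaller, to 9016364 and 9239707 tags for AtCENH3 and to 12730185 tags for both LoCENH3 libraries, and pile-up is given below per 1000000 of these scaled tags (RPM). Pile-up is the number of extended tags that cover the summit, the highest point of a peak. As deposited, the AtCENH3 lists held 315 and 255 peaks and the LoCENH3 lists 296 and 308. With the chromosome 4 block left out, LoCENH3, with more tags, had fewer peaks. They covered 54.8 and 79.6 kb against 130.1 and 110.6 kb for AtCENH3. Median peak length was 274 and 297 bp for AtCENH3 and 255 and 280 bp for LoCENH3, and the groups overlapped. The difference of group means was −18 bp (exact two-sided permutation p = 0.667), and without 1 library it ranged from −30.5 to −5.5 bp. Median pile-up was 5.21 and 5.95 RPM for AtCENH3 and 19.1 and 13.1 RPM for LoCENH3, a difference of 1.51 on the log2 scale (exact two-sided permutation p = 0.333). This difference was −0.03 once each list was shortened to the same number of its highest peaks by pile-up.

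Outside the chromosome 4 block, LoCENH3 peaks were largely a subset of native peaks. The block left out held 139 and 112 further LoCENH3 peaks and no AtCENH3 peak. Of the LoCENH3 replicate 1 peaks, 87.1% overlapped a peak of AtCENH3 replicate 1 and 83.9% a peak of AtCENH3 replicate 2, and 88.4% overlapped a peak of LoCENH3 replicate 2. Of the LoCENH3 replicate 2 peaks, 93.9% and 88.8% overlapped AtCENH3 peaks and 64.3% overlapped a peak of LoCENH3 replicate 1. LoCENH3 peaks thus met AtCENH3 peaks about as often as, or more often than, peaks of their own replicate. The lists met differ in length, with 315 and 255 peaks in AtCENH3 and 155 and 196 in LoCENH3. The part of list length in these shares was not tested.

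In the other direction many native peaks had no LoCENH3 counterpart. AtCENH3 replicate 1 peaks overlapped a peak of AtCENH3 replicate 2 in 73.3% of cases, a LoCENH3 replicate 2 peak in 54.6% and a LoCENH3 replicate 1 peak in 36.8%. AtCENH3 replicate 2 peaks overlapped a peak of AtCENH3 replicate 1 in 91.8% of cases, a LoCENH3 replicate 2 peak in 64.3% and a LoCENH3 replicate 1 peak in 45.1%. Every share met by LoCENH3 was below both shares met between the AtCENH3 replicates. The mean share between variants was 32.3 percentage points below the mean share within AtCENH3 (exact one-sided permutation over the 3 ways to pair the libraries, p = 0.333). With each list shortened to the same number of its highest peaks by pile-up, which leaves out low AtCENH3 peaks, the difference was −16.9 percentage points.

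Native regions were defined as merged AtCENH3 peaks called in both AtCENH3 libraries, and there were 227 of them among 332 merged regions. LoCENH3 had a peak in both libraries at 108 native regions (47.6%), in 1 library at 52 and in neither at 67 (29.5%). These 3 classes are called kept, partly kept and lost below, and a lost region is one without a called peak, which may still have carried signal. LoCENH3 replicate 1 met 110 native regions (48.5%) and replicate 2 met 158 (69.6%). Of the partly kept regions, 50 were called in replicate 2 alone and 2 in replicate 1 alone. At native regions the calls of replicate 1 thus lay almost wholly inside those of replicate 2. Over the whole lists, 18 of 155 replicate 1 peaks met no replicate 2 peak.

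**Figure D1:**
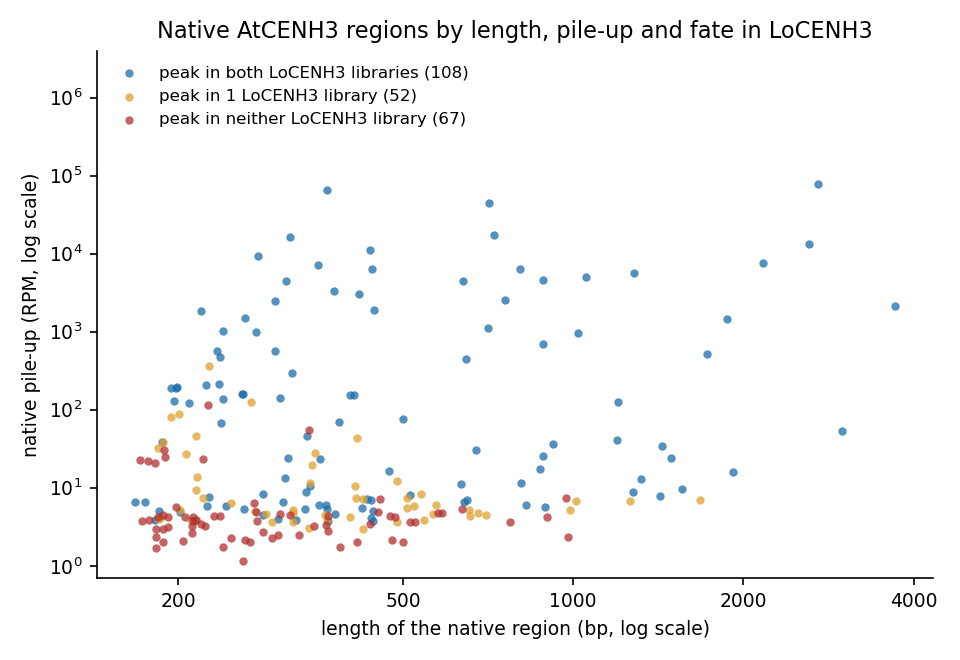
Each point is 1 of the 227 native regions, with its length in bp on the x axis and its mean AtCENH3 pile-up in RPM on the y axis, both on log scales; colour gives the number of LoCENH3 libraries with a peak there. The 67 lost regions lie mostly below 10 RPM at all lengths under 1 kb, and 8 of them lie above 10 RPM.

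Kept regions were mostly the tall native peaks and lost regions mostly the low ones. Kept regions had a median native pile-up of 60.2 RPM, with an interquartile range of 7.09 to 1040, while lost regions had a median of 3.73 RPM, with an interquartile range of 2.55 to 4.64. Partly kept regions lay between them, at a median of 5.92 RPM. The medians of kept and lost regions differed by 4.0 on the log2 scale, and by 1.97 where LoCENH3 replicate 2 alone decided what was kept. The ranges overlapped, from 3.69 to 77715 RPM for kept and from 1.16 to 113 RPM for lost regions. Of the lost regions, 4 had a native pile-up under the lowest LoCENH3 replicate 1 peak, at 1.87 RPM, and none lay under the lowest LoCENH3 replicate 2 peak, at 0.948 RPM. The lowest peak of a list is not the pile-up needed at a given region, so these counts do not show which regions could have been called. The lowest quartile of LoCENH3 peaks reached 7.69 RPM in replicate 1 and 7.20 RPM in replicate 2.

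By quartile of native pile-up, LoCENH3 kept 6 of 57 regions in the lowest quartile, 21 of 57 in the second, 29 of 56 in the third and 52 of 57 in the highest, against 47.6% of all native regions. The highest quartile began at 76.7 RPM, and 1 of its regions was lost. The lowest quartile ended at 4.23 RPM, and 40 of its regions were lost. The same trend over single peaks was present between AtCENH3 replicates but started from a higher level. Of the AtCENH3 replicate 1 peaks in the highest quartile, 100% were met by AtCENH3 replicate 2, 93.7% by LoCENH3 replicate 2 and 81.0% by LoCENH3 replicate 1. In the second quartile these shares were 72.2%, 45.6% and 19.0%, and in the lowest they were 26.6%, 5.06% and 2.53%.

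**Figure D2:**
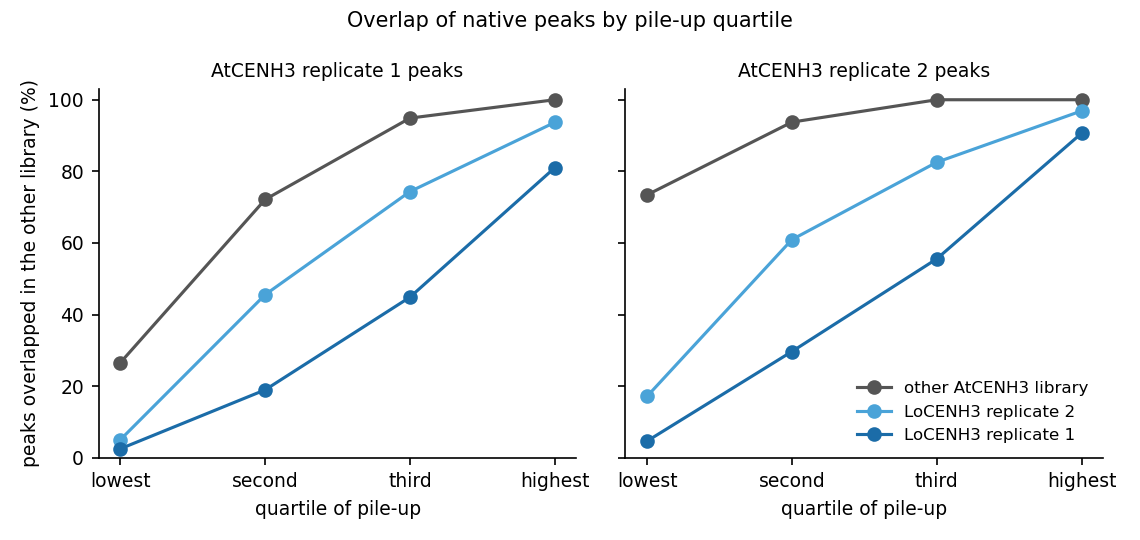
Share of AtCENH3 peaks, in percent, that overlap a peak of the other AtCENH3 library or of each LoCENH3 library, by quartile of pile-up (x axis), with the peaks of AtCENH3 replicate 1 on the left and of replicate 2 on the right. In both panels and in every quartile the LoCENH3 lines lie below the line of the AtCENH3 replicate, and they approach it in the highest quartile.

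Length added less than height. Kept regions had a median length of 382.5 bp, partly kept regions 347.5 bp and lost regions 263 bp, a difference of 0.54 on the log2 scale between kept and lost. This difference was 0.18 with an overlap of 50% of both peaks, 0.17 with the better-scoring part of each list and 0.92 with lists of equal length. By quartile of length, LoCENH3 kept 14 of 57, 30 of 57, 26 of 56 and 38 of 57 native regions from the shortest to the longest. With both properties split at their medians, 342 bp and 6.94 RPM, LoCENH3 kept 13 of 63 low and short regions, 14 of 51 low and long regions, 31 of 51 high and short regions and 50 of 62 high and long regions. Among low regions, length thus made little difference to the share kept (20.6% and 27.5%), although the lost share was 58.7% for short and 39.2% for long ones.

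The tallest native regions were all kept, and at similar pile-up. At chromosome 3, 13589846 to 13592557 (TAIR10), pile-up was 86948 and 69463 RPM in AtCENH3 and 54537 and 72567 RPM in LoCENH3. At chromosome 4, 3953424 to 3953790, it was 71556 and 59516 RPM in AtCENH3 and 48615 and 65694 RPM in LoCENH3. The 2 variants overlapped at both places. The highest region of chromosome 2, 3625791 to 3626501, lies in the protein-coding gene AT2G08986 and had 48695 and 41326 RPM in AtCENH3 and 38149 and 52459 RPM in LoCENH3. The next highest, on chromosome 5 at 11732008 to 11732731, had 18592 and 16216 RPM in AtCENH3 and 13717 and 18649 RPM in LoCENH3, and a second region in AT2G08986, at 3622462 to 3622777, had 16887 and 15818 against 11134 and 16582 RPM. In all 5 regions LoCENH3 replicate 1 had the lowest pile-up of the 4 libraries. Chromosome 1 had the lowest maximum, in the protein-coding gene AT1G40104 at 15081992 to 15083859, with 1380 and 1525 RPM in AtCENH3 and 886 and 1504 RPM in LoCENH3. A single summit held between 5.45% and 8.69% of the scaled tags of a library, and the sources used here do not state how tags matching several repeat copies were placed.

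Of the 67 lost regions, the highest stood on chromosome 2 at 3617064 to 3617289, in the protein-coding gene AT2G07981, with 104 and 124 RPM in AtCENH3. It was also without a peak in both libraries of ZmCENH3, the maize variant in the same mutant. The next 4 were on chromosome 4 at 3965593 to 3965933, in the pseudogene AT4G06708, with 55.1 and 55.3 RPM, on chromosome 4 at 3987380 to 3987568 with 32.6 and 28.5, on chromosome 5 at 11707405 to 11707594 with 27.9 and 21.8, and on chromosome 4 at 3967228 to 3967448 with 23.2 and 23.1. These 4 regions were called in both ZmCENH3 libraries. Those on chromosome 4 lie in or just before a run of shared regions described further below. The longest lost region, 981 bp on chromosome 3 at 13656725 to 13657705, had only 2.55 and 2.11 RPM. The other long ones spanned 971 bp at 11686048 and 900 bp at 11831454 on chromosome 5, the latter in the pseudogene AT5G32161, 772 bp at 3951229 on chromosome 2, in the pseudogene AT2G10280, and 635 bp at 3876141 on chromosome 4, and their highest pile-up was 7.45 RPM.

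Most regions lost by LoCENH3 were called in the maize variant, though less often than native regions as a whole. Of the 67 lost regions, 48 had a peak in both ZmCENH3 libraries, 7 in 1 and 12 in neither, and of the 108 kept regions 107 had a peak in both. Over all 227 native regions the count was 206 in both ZmCENH3 libraries and 14 in neither. The ZmCENH3 lists are longer, with 809 peaks in 2 libraries, and both comparisons use the same native regions.

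Kept and lost regions were mixed along every chromosome. LoCENH3 kept 18 of 36 native regions on chromosome 1, 19 of 35 on chromosome 2, 8 of 15 on chromosome 3, 28 of 58 on chromosome 4 and 35 of 83 on chromosome 5, and lost 9, 12, 7, 16 and 23 of them. These shares kept, between 42.2% and 54.3%, lie close to 47.6%, the share of all native regions kept. Chromosome 3 held no partly kept region.

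Within chromosomes the groups of native regions, joined over 200 kb, differed more. The group on chromosome 2 between 3.55 and 3.72 Mb, with the AT2G08986 and AT2G07981 regions and a median native pile-up of 1258 RPM, kept 17 of 20 regions. The group on chromosome 1 between 16.51 and 16.53 Mb kept 10 of 14 and lost none, at a median of 20.4 RPM. The 2 largest groups kept a share near the mean, 25 of 51 on chromosome 4 between 3.73 and 4.03 Mb and 31 of 70 on chromosome 5 between 11.69 and 12.17 Mb. In contrast, the 5 regions near the start of chromosome 2, between 0.02 and 0.06 Mb, were all lost, as were 4 of 5 regions on chromosome 2 between 3.95 and 3.97 Mb and 3 of 4 on chromosome 3 near 13.19 Mb. The 5 regions near the start of chromosome 2 had native pile-ups of 1.16 to 2.46 RPM, within the lowest quartile.

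Isolated regions were kept less often. The median distance to the nearest native region was 369 bp for kept, 390 bp for partly kept and 940 bp for lost regions. Of the regions in the quartile with the most distant neighbours, 1230 bp or more, 20 of 57 were kept and 27 lost, against 30 of 57 kept and 13 lost in the quartile with the closest neighbours. Median native pile-up moved with this distance, from 12.9 RPM in the closest to 4.38 RPM in the most distant quartile, and its part in the result was not tested. The region that followed a kept region along the chromosome was kept in 56.2% of 105 cases, and the one that followed a lost region in 33.8% of 65 cases.

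**Figure D3:**
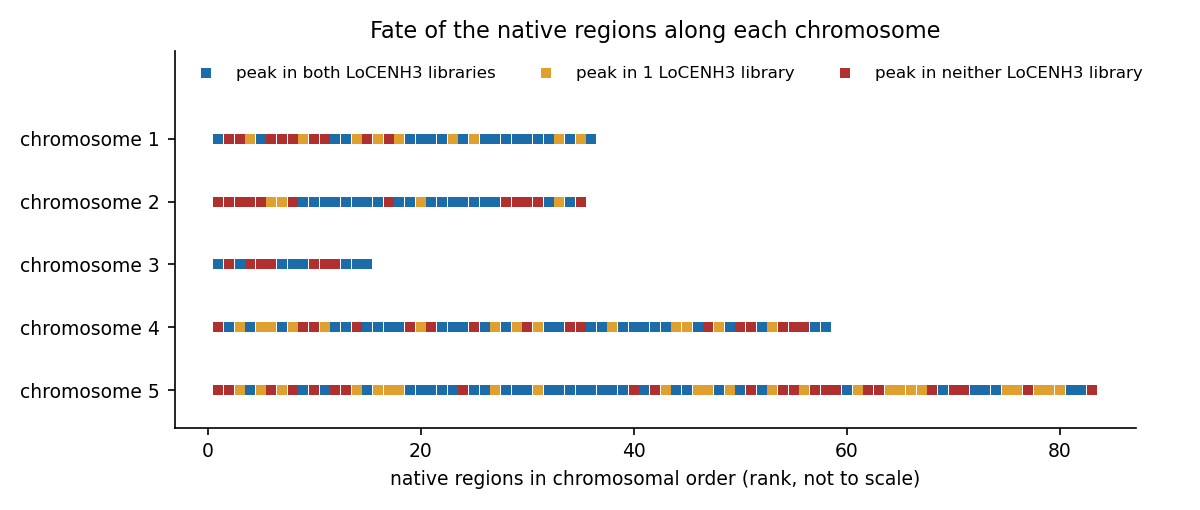
Each square is a native region in its order along chromosomes 1 to 5 (x axis, rank and not to scale), coloured by the number of LoCENH3 libraries with a peak there. All 3 classes are mixed on chromosomes 1, 2, 4 and 5, with all 5 regions at the start of chromosome 2 lost and a mostly kept stretch in its middle.

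By annotation, 145 native regions overlapped no annotated gene, and LoCENH3 kept 70 of them and lost 40. Of 66 that overlapped a pseudogene, 24 were kept and 26 lost, and of 16 that overlapped a protein-coding gene, 14 were kept and 1 lost. The shares kept were 48.3%, 36.4% and 87.5%, against 47.6% of all native regions. Median native pile-up in these classes was 7.72, 4.54 and 1485 RPM, so the class kept most often was also the highest. The 16 regions came from 4 protein-coding genes. LoCENH3 kept 7 of the 8 regions of AT2G08986, 3 of the 4 of AT2G07981, all 3 of AT1G40104 and the only region of AT1G43760. Among 41 pseudogenes with a native region, all regions were kept in 12 and all were lost in 15. The microRNA gene MIR854b, one of a family that lies within retrotransposon sequence, overlapped 1 region with a native pile-up of 5.21 RPM that LoCENH3 replicate 2 alone called.

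Inside the kept regions LoCENH3 peaks were shorter than the native ones. In the 108 kept regions the median share of the region covered by called peaks was 99.3% and 99.2% in the AtCENH3 libraries, 74.4% in LoCENH3 replicate 1 and 86.6% in replicate 2. The called peaks summed to 68.8 and 67.4 kb for AtCENH3 and to 48.1 and 58.3 kb for LoCENH3, of 70.4 kb of kept regions. LoCENH3 replicates 1 and 2 had more than 1 peak in 13 and 14 of these regions, against 2 and 4 for the AtCENH3 replicates. The native shares are high by construction, since the regions were defined from AtCENH3 peaks.

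Paired peaks gave the same picture without that construction. When each peak was paired with the peak that overlapped it best in the other list, the LoCENH3 peak was the shorter one in 93.9% of pairs for LoCENH3 replicate 1 against each AtCENH3 library, and in 85.0% and 81.1% for LoCENH3 replicate 2 against AtCENH3 replicates 1 and 2. Between the AtCENH3 libraries, replicate 2 was the shorter in 54.2% of pairs. The LoCENH3 peak lay wholly inside the native one in 86.2% and 85.2% of pairs for replicate 1 and in 71.3% and 67.3% for replicate 2. It was trimmed at both ends about equally, by medians of 26.5 bp on the left and 34 bp on the right for LoCENH3 replicate 1 against AtCENH3 replicate 1. The 2 LoCENH3 libraries also differed from each other, with replicate 1 the shorter in 113 of 126 pairs.

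Over the 105 regions called in all 4 libraries, of 352 merged regions, the median called length was 366 and 354 bp in AtCENH3 and 258 and 324 bp in LoCENH3. Both LoCENH3 libraries were below both AtCENH3 libraries. The difference between the medians was −0.32 on the log2 scale (exact two-sided permutation p = 0.333, the smallest possible), and −0.48 without LoCENH3 replicate 2. The mean called length was lower in LoCENH3 at 98 of the 105 regions and higher at 7, with a median difference of −0.26, that is 83.4% of the native length. The median absolute difference between replicates was 0.03 in AtCENH3 and 0.16 in LoCENH3.

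Single regions passed a test of length less often. With limma and Benjamini-Hochberg adjustment over the 105 regions, called length was lower in LoCENH3 at 7 regions (6.67% of those tested) and higher at 1 (0.952%), and 31 regions had an unadjusted p under 0.05. Without AtCENH3 replicate 1 or replicate 2 none passed, with 10 and 16 regions at an unadjusted p under 0.05, and without LoCENH3 replicate 2, 71 were lower. Among the regions that passed, the largest decrease was on chromosome 3 at 13588846 to 13589650, beside the tallest native peak, where 805 bp were called in each AtCENH3 library and 377 and 402 bp in LoCENH3 (log2 difference −1.05 ± 0.06 SE, limma adjusted p = 0.018). On chromosome 5 at 11718135 to 11718576, in the pseudogene AT5G31804, 442 and 356 bp were called in AtCENH3 and 189 and 198 bp in LoCENH3 (−1.04 ± 0.14 SE, limma adjusted p = 0.049). On chromosome 4 at 3977640 to 3978139 the called length fell from 496 and 482 bp to 266 and 272 bp. The groups did not overlap at these 3 regions. Once peaks within 200 bp were joined, the difference at the region holding the first was −0.28 (limma adjusted p = 0.0581), while that at the second stayed at −1.04 (limma adjusted p = 0.0539). The next in size were on chromosome 3 at 15300699 to 15301011, with 292 and 312 bp in AtCENH3 and 197 bp in each LoCENH3 library, and on chromosome 2 at 3623126 to 3624008, in AT2G08986, with 883 bp in each AtCENH3 library and 579 and 622 bp in LoCENH3. The 1 region that was longer in LoCENH3 was on chromosome 5 at 11956548 to 11956822, with 165 and 167 bp in AtCENH3 and 255 and 275 bp in LoCENH3.

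Median summit distances between the variants were similar to those between replicates. The median distance between paired summits was 10 bp between the AtCENH3 libraries (227 pairs) and 6 bp between the LoCENH3 libraries (126 pairs). Between variants it was 6.5 and 9 bp for AtCENH3 replicate 1 against LoCENH3 replicates 1 and 2 (116 and 167 pairs), and 9 and 7 bp for AtCENH3 replicate 2 (115 and 159 pairs). These pairs hold only native peaks that LoCENH3 also called, while the AtCENH3 pairs include others. At the 105 regions called in all 4 libraries the median was 5 bp between AtCENH3 replicates and 6 bp between LoCENH3 replicates. Between the mean summits of the variants it was 4 bp, though a mean of replicates varies less than a single summit. The mean between variants, 7.88 bp, lay 0.125 bp below the mean within variants, 8 bp (exact one-sided permutation p = 0.667), and without 1 library this difference ranged from −2.25 to 2 bp. With lists of equal length the mean between variants was 0.5 bp above that within, and with the better-scoring part of each list 0.625 bp above. The median signed offset was 0 or 1 bp in all 4 pairs of libraries between variants. Against AtCENH3 replicate 1, the LoCENH3 replicate 1 summit lay to the right in 61 pairs, to the left in 36 and at the same base in 19, and the LoCENH3 replicate 2 summit to the right in 77 and to the left in 68. Against AtCENH3 replicate 2 the counts were 51 to the right and 48 to the left for LoCENH3 replicate 1, and 62 and 71 for replicate 2, so the sides were uneven mainly in the first of these pairs.

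Distant summits were more frequent between variants mainly in the pairs with LoCENH3 replicate 2. A distance over 73 bp, about the distance from the centre of a nucleosome to the edge of its DNA, was found in 9.69% of pairs between AtCENH3 libraries and in 7.14% between LoCENH3 libraries. Against AtCENH3 replicates 1 and 2 it was found in 11.2% and 9.57% of pairs for LoCENH3 replicate 1, and in 16.2% and 16.4% for LoCENH3 replicate 2. The excess was 4.91 percentage points (exact one-sided permutation p = 0.333, the smallest possible), but the lowest value between variants was below the highest within. These were mostly long peaks. For native peaks up to 300 bp the share was between 0% and 2.33% in the 4 pairs between variants. For longer ones it was 16.4% and 15.1% with LoCENH3 replicate 1 and 25.2% and 25.3% with LoCENH3 replicate 2, against 16.3% between the AtCENH3 libraries.

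**Figure D4:**
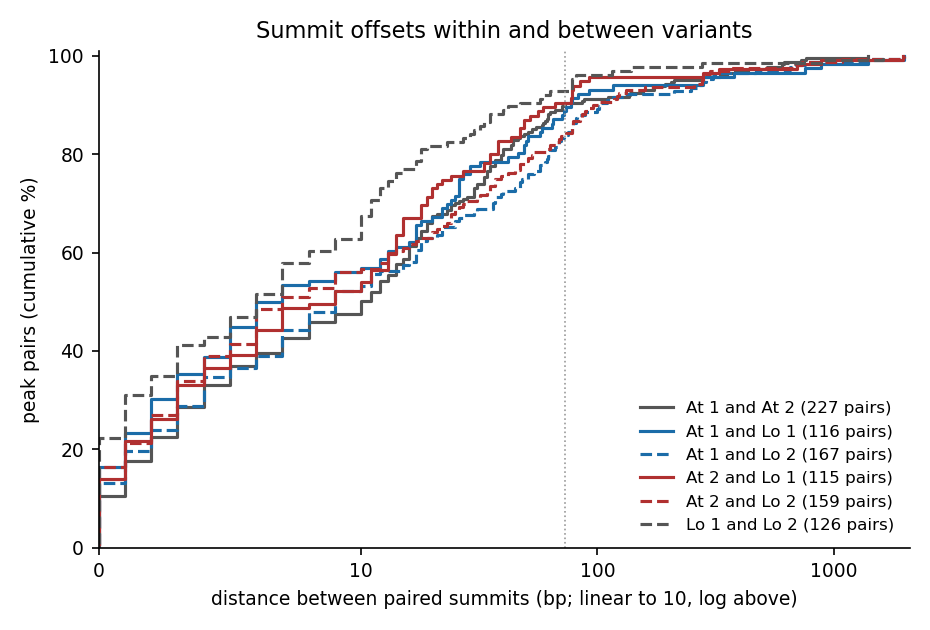
Cumulative share of paired peaks, in percent, against the distance between their summits in bp (linear to 10, log above), for each of the 6 pairs of libraries; At and Lo stand for AtCENH3 and LoCENH3, numbers for replicates, and the dotted line marks 73 bp. The curves between variants run close to those within variants up to about 10 bp, and those with LoCENH3 replicate 2 lie lowest near 73 bp.

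Over the 105 shared regions, the mean LoCENH3 summit lay more than 73 bp from the mean AtCENH3 summit in 7, and in 6 of these the distance exceeded that between both pairs of replicates. Summits of replicates lay more than 73 bp apart at 4 of the 105 regions in AtCENH3 and at 5 in LoCENH3. On chromosome 4 at 3950497 to 3953111, in the pseudogene AT4G06700, a region with 13922 and 12895 RPM in AtCENH3 and 9303 and 13981 RPM in LoCENH3, the LoCENH3 summit lay 280 bp to the right, and replicates of a variant had the same summit to the base. On chromosome 4 at 3753632 to 3754272 the LoCENH3 summit had an offset of −90.5 bp, to the left, and on chromosome 5 at 11783379 to 11783747, in the pseudogene AT5G31999, an offset of −78.5 bp, with at most 3 bp between replicates. The largest distance, 964 bp on chromosome 1 at 16515963 to 16517881 in the pseudogene AT1G43745, came with 728 bp between the AtCENH3 replicates. An offset of −152 bp on chromosome 5 at 11811811 to 11813365 was smaller than the 353 bp between the AtCENH3 replicates.

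At the shared regions pile-up followed that of the native protein over its whole range, and the size of the mean difference depended on how it was taken. The median pile-up over the 105 regions was 45.5 and 47.8 RPM in AtCENH3 and 63.5 and 116 RPM in LoCENH3. The medians differed by 0.88 on the log2 scale (exact two-sided permutation p = 0.333, the smallest possible), and by 0.57, 0.13, 0.35 and 0.64 without AtCENH3 replicate 1, AtCENH3 replicate 2, LoCENH3 replicate 1 and LoCENH3 replicate 2. With only the better-scoring peaks kept in each list the difference was −0.015. The median of the differences within regions was only 0.08, with 58 regions higher and 47 lower in LoCENH3. Within regions LoCENH3 replicate 2 exceeded replicate 1 by a median of 0.44 on the log2 scale, while the AtCENH3 replicates differed by −0.08.

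Centring each library on its median, the scaling chosen for the test, lowered all differences by 0.88, the difference of the medians. With that centring limma called 6 regions higher in LoCENH3 (5.71% of those tested) and 61 lower (58.1%) at an adjusted p under 0.05. Without centring it called 28 higher (26.7%) and 2 lower (1.9%), and with the libraries centred on their median ratio 35 higher (33.3%) and 13 lower (12.4%). The direction of most regions therefore turned with the scaling, and 6 higher and 2 lower regions were called in the same direction under all 3 scalings. Leaving out each library in turn moved the counts with centring on library medians to between 20 and 27 higher and between 0 and 71 lower, the 0 coming without LoCENH3 replicate 1, where 5 regions were lower at an unadjusted p under 0.05.

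**Figure D5:**
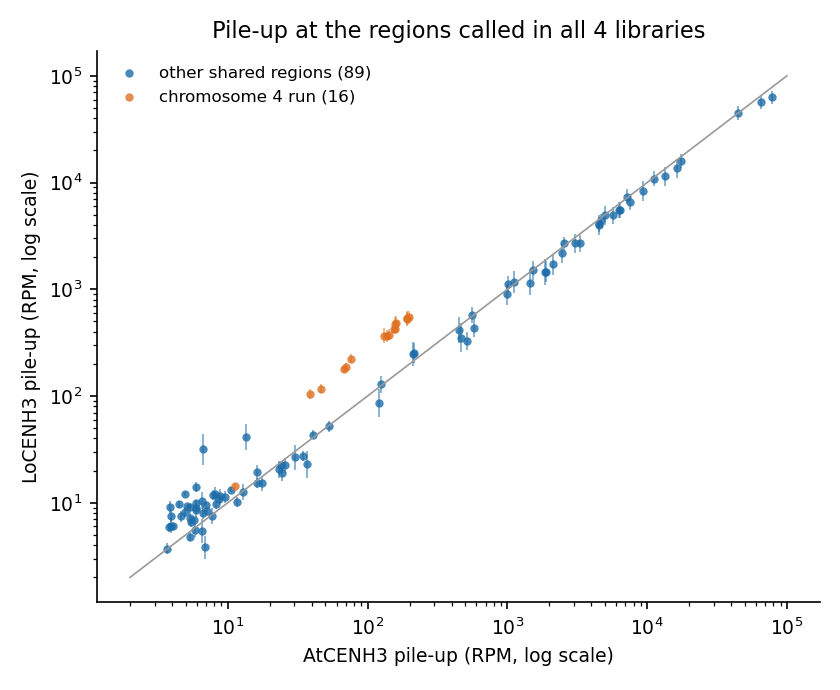
Mean LoCENH3 against mean AtCENH3 pile-up, both in RPM on log scales, at the 105 regions called in all 4 libraries; vertical lines join the 2 LoCENH3 replicates and the grey line marks equal values. The 89 blue regions follow the line. The 16 orange regions of the run on chromosome 4, which was chosen for its higher LoCENH3 pile-up, lie above it.

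The regions higher in LoCENH3 under all 3 scalings were led by the one on chromosome 5 at 11956548 to 11956822, already named for its length, with 5.99 and 7.30 RPM in AtCENH3 and 22.5 and 44.3 RPM in LoCENH3 (uncentred log2 difference 2.25 ± 0.27 SE). The limma SE of the uncentred pile-up difference was the same at every region named here, so it is not the spread of a single region. At this one the LoCENH3 replicates differed by 0.98 on the log2 scale. On chromosome 2 at 3718106 to 3718456 pile-up was 13.0 and 14.0 RPM in AtCENH3 and 31.2 and 54.2 RPM in LoCENH3 (uncentred log2 difference 1.61 ± 0.27 SE). Next came chromosome 4 at 3985993 to 3986252, with 157.3 and 156.9 against 413 and 546 RPM, at 3972561 to 3972821, with 164 and 157 against 414 and 557 RPM, and at 3977640 to 3978139, with 76.7 in each AtCENH3 library against 203 and 247 RPM. In these 5 regions both LoCENH3 libraries lay above both AtCENH3 libraries.

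The 3 regions just named on chromosome 4 belong to a run of 16 shared regions between 3969110 and 4010359, singled out after its values were seen. Its rule took the longest stretch of neighbouring shared regions where LoCENH3 pile-up exceeded AtCENH3 by over 0.8 on the log2 scale. Inside the stretch 1 region at a time could fall below that. The higher LoCENH3 pile-up of the run therefore follows from its selection. Median pile-up over the run was 140 and 139 RPM in AtCENH3 and 325 and 427 RPM in LoCENH3. The uncentred log2 differences ranged from 0.35 to 1.60, and limma called 15 of the 16 higher without centring, on the same values that chose the run. The background that the peak caller set against the ChIP signal there, solved from the deposited fold enrichment, was 32.7 RPM in both AtCENH3 lists and 142.5 and 142.6 in the LoCENH3 lists. Fold enrichment over background was accordingly lower in LoCENH3, at medians of 2.02 and 2.55 against 3.39 and 3.21 in AtCENH3. The part of the background in the pile-up difference was not tested. The tall lost regions at 3965593, 3967228 and 3987380 lie in or just before this run. Their native pile-up, at most 55.3 RPM, was under the median LoCENH3 background of the run, and its part in their loss was not tested. Outside the run, the median uncentred difference over the other 89 regions was −0.02, with 42 higher and 47 lower, and refitting without the run called 8 higher and 1 lower. Leaving out regions chosen for a high difference lowers this median by construction. At the chromosome 2 region from 3718106, background was 2.60 RPM in both AtCENH3 lists and 14.5 and 14.3 in LoCENH3. Fold enrichment there was 4.83 and 5.22 in AtCENH3 and 2.15 and 3.78 in LoCENH3. At the chromosome 5 region from 11956548, background was higher in LoCENH3 by 1.44 on the log2 scale. The part of background at these places was not tested.

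Among the regions lower in LoCENH3, 2 were called under all 3 scalings. On chromosome 3 at 13188151 to 13188798 pile-up was 7.32 and 6.48 RPM in AtCENH3 and 2.98 and 4.87 RPM in LoCENH3 (uncentred log2 difference −0.85 ± 0.27 SE). On chromosome 2 at 3965355 to 3966275 it was 38.6 and 35.2 RPM in AtCENH3 and 17.2 and 30.5 RPM in LoCENH3 (−0.69 ± 0.27 SE). The groups did not overlap at either place. Neither passed without LoCENH3 replicate 1, and the second did not pass uncentred without the run on chromosome 4 (limma adjusted p = 0.0905). The other 3 of the 5 largest decreases with centring on library medians did not pass uncentred. They were chromosome 5 at 11701857 to 11703584, with 553 and 472 against 270 and 402 RPM, chromosome 1 at 14509481 to 14509692, with 115 and 126 against 63.5 and 116 RPM, and chromosome 5 at 11706890 to 11707128, with 431 and 510 against 259 and 479 RPM. At the latter 2, LoCENH3 replicate 2 lay within the AtCENH3 range.

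The direction of the difference varied with native height and with the run. In the lowest quartile of native pile-up among shared regions, up to 6.94 RPM, LoCENH3 was higher at 23 of 27 regions, with a median uncentred log2 difference of 0.62. Regions entered this set only if both LoCENH3 libraries had a peak there, so low regions had to reach the calling threshold in LoCENH3. In the second quartile LoCENH3 was higher at 14 of 26 regions, with a median of 0.15. In the third, from 53.1 to 1115 RPM, it was higher at 19 of 26, with a median of 0.82. The run, chosen for this difference, holds 13 of these 26 regions. The other 13 had a median of −0.03, with 6 higher. In the highest quartile, from 1451 RPM, LoCENH3 was higher at 2 of 26 regions, with a median of −0.19.

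Median fold enrichment over the control was lower in LoCENH3 in each quartile of native pile-up. At the 105 shared regions its median was 11.5 and 10.8 in AtCENH3 and 3.26 and 4.36 in LoCENH3, and in the highest quartile of native pile-up it was 37.6 and 33.5 against 10.4 and 14.9. The background solved from it was higher in LoCENH3 at 104 of the 105 regions, by a median of 1.55 on the log2 scale. Both libraries of a variant share a control, so this difference rests on 1 control alignment for each variant. A higher background raises the pile-up a peak needs to be called, and its part in the lost regions and in the shorter peaks was not tested. Fold enrichment in AtCENH3 had medians of 12.1 and 11.5 at kept regions, 5.16 and 4.42 at partly kept regions and 5.36 and 4.73 at lost regions.

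Outside the chromosome 4 block, few LoCENH3 regions lay away from native peaks. Of 126 LoCENH3 regions called in both LoCENH3 libraries, 116 met a peak in both AtCENH3 libraries, 6 in 1 and 4 in neither. The highest of the 4 was on chromosome 5 at 12046698 to 12046983, with 13.1 and 21.4 RPM in LoCENH3, and the nearest AtCENH3 peak was 2302 bp away. The others were on chromosome 1 at 15095369 to 15095607 with 10.7 and 8.62 RPM, on chromosome 3 at 13601523 to 13601776 with 3.74 and 4.22, and on chromosome 1 at 14887767 to 14888028 with 2.62 and 2.33. None overlapped an annotated gene, and the first 3 had a peak in both ZmCENH3 libraries, while the last had none. The count rose to 9 without AtCENH3 replicate 1, to 11 without LoCENH3 replicate 1 and to 19 without LoCENH3 replicate 2. With the chromosome 4 block included it was 80.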

How the data were processed

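CENH3 ChIP-seq peak lists of 2 AtCENH3 and 2 LoCENH3 libraries were used, and antibody controls and inputs were not analysed here. Per the submitters' processing notes, BWA and MACS2 were used with build TAIR10. Per the file headers, MACS 2.1.0.20140616 called each list separately with tags extended to 165 bp, a q-value cutoff of 0.05 and an effective genome size of 2.7 Gb. The deposited pile-up is coverage (signal) at the summit after scaling, the deposited fold enrichment is a ratio to local background, the deposited −log10 q-value is the caller's, and start, end, length and summit are positions in bp as the authors deposited them. Background was solved as (pile-up + 1) / fold − 1, the caller's usual definition.

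An overlap of 1 bp counted as met. Peaks of chromosome 4 within 4325454 to 4482371 were left out. Pile-up was divided by the scaled tags and multiplied by 1000000 (RPM). Log2 values were tested with limma 3.58.1 in R 4.3.3 with Benjamini-Hochberg adjustment, and single values by exact permutation of libraries, in Python 3.11.15 with numpy 2.4.6 and pandas 2.3.3. Functions were tested on simulated data. Genes came from a RefSeq table of assembly TAIR10.1, assumed to share nuclear numbering with TAIR10. Named regions were the 5 highest kept, 5 highest lost and 5 longest lost, the highest of each chromosome, the 5 largest called differences each way in pile-up and length, the 5 largest summit offsets and up to 5 LoCENH3 regions without a native peak. Members, lists and rules were chosen with earlier results of these data known. Replicate numbers are not stated to mark a shared batch. Alternatives were stricter overlap, the better-scoring part or equal length of the lists, joined peaks, other scalings, the replicate block and leaving out each library. Lists of equal length kept the peaks of highest pile-up.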

Additional observations from a re-analysis of the deposited data

Results flagged for a closer look

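LoCENH3 replicate 1 was the only one of the 4 libraries with peaks on organelle sequences, which no comparison used: 2 peaks, against 0 in each AtCENH3 library and 0 in LoCENH3 replicate 2. The chloroplast peak spanned 235 bp with a pile-up of 242 RPM and a fold enrichment of 1.17, and the mitochondrial peak spanned 388 bp with 16.7 RPM and a fold enrichment of 1.48.

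The block on chromosome 4 that was left out held 139 peaks of LoCENH3 replicate 1 and 112 of LoCENH3 replicate 2, and 0 of either AtCENH3 library. These peaks appear in the LoCENH3 data alone of the 2 variants and were not part of the comparisons.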

How the results depend on the processing

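Depth, control and list length set what was called, and a region without a peak may have held signal. With 2 libraries per variant no permutation p can fall under 0.333. With an overlap of 50% of both peaks, kept and lost regions differed in length by 0.18 on the log2 scale. With the better-scoring part of each list, kept and lost regions differed by 6.43 in log2 pile-up and 0.17 in log2 length, the summit excess was 0.625 bp, the difference of pile-up medians at shared regions was −0.015 and 1 LoCENH3 region had no native peak. With lists of equal length 65.9% of native regions were kept, the kept and lost classes differed by 2.92 in log2 pile-up and 0.92 in log2 length, the summit excess was 0.5 bp, 7 LoCENH3 regions had no native peak and the median peak pile-up differed by −0.030. Joining peaks over 200 bp gave a log2 length difference of 0.68 between kept and lost. Including the chromosome 4 block gave 80 LoCENH3 regions without a native peak, a median length difference of 12.75 bp and a log2 pile-up difference of −0.37. Taken as the share of offsets over 73 bp, the summit excess was 4.91 points. The cause of these changes was not tested.

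Without 1 library, the share of native regions kept ranged from 35.9% to 69.6%, the kept and lost difference from 1.97 to 3.95 in log2 pile-up and from 0.38 to 0.78 in log2 length, the summit excess from −2.25 to 2 bp and the LoCENH3 regions without a native peak from 5 to 19. The share excess ranged from −41.6 to −23.1 points without a LoCENH3 library, and has no value without an AtCENH3 library, since it needs both. In limma the counts ranged from 20 to 27 higher and 0 to 71 lower for pile-up, and from 0 to 2 higher and 0 to 71 lower for length, a lone library being assumed to vary like the other group.

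Pile-up calls were 28 higher and 2 lower without centring, 35 and 13 with the median ratio, and 8 and 1 without centring and without the chromosome 4 run, both latter settings chosen after seeing the data. With 50% overlap 18 were higher, with the better-scoring part 15 higher and 8 lower, and with equal lists 13 higher. For length, 0 were higher with the better-scoring part. With the replicate block, 17 regions were higher in pile-up and 70 lower, 1 was longer and 7 shorter, though the named lengths on chromosome 3 at 15300699 and chromosome 2 at 3623126 did not pass (limma adjusted p = 0.0594 and 0.0687), and the same-numbered pairs gave a share excess of −32.0 points and a summit excess of −1.25 bp. Deviations of same-numbered libraries correlated at 0.24 across regions, which are not independent. Of the differences of regions named for pile-up or length, recomputed under the alternatives, 138 passed as before, 36 no longer passed and 0 turned direction. Settings in which a named region was absent are not in this count. Including the chromosome 4 block, which holds no AtCENH3 peak, could not change these values and counts as passing.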

Other observations

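Regions called in 1 AtCENH3 library alone were not counted as native. Of these 105 regions, 84 were called in replicate 1 and 21 in replicate 2. LoCENH3 had a peak in both libraries at 6 of them, in 1 at 8 and in neither at 91 (86.7%).

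Of 88 regions called in 1 LoCENH3 library alone, 59 met a peak in both AtCENH3 libraries, 7 in 1 and 22 in neither. In LoCENH3 replicate 2, peaks in the lowest quartile of pile-up met a peak of AtCENH3 replicate 1 in 83.7% of 49 cases and of LoCENH3 replicate 1 in 26.5%.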
